A study of Mus musculus with 35 samples.

Results

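Suprarenal aortas from mice infused with angiotensin II (Ang II) for 28 days were compared with aortas from mice infused for 7 days, across all genes on the array. The members were chosen by title alone: 6 arrays titled as Ang II aortas of 28 days and 4 arrays titled as Ang II aortas of 7 days, 10 of the 35 arrays of the series. Every mouse was a male of the ApoE-/- strain, which lacks apolipoprotein E and is prone to high blood cholesterol. An osmotic minipump was placed under the skin at 12 to 14 weeks of age and delivered Ang II at 1000 ng/kg/min. After perfusion with saline the entire suprarenal aorta was frozen, and 1 aorta was hybridised per array. The labels call the 7 day tissue a non-dissected aneurysm and the 28 day tissue an aneurysm, without saying whether the latter had dissected. The 3 aortas that had dissected by 7 days form a group of their own that is set against no other here and enters only the estimate of the spread shared by all groups. Saline-infused mice of the same strain, 6 at 7 days and 5 at 28 days, gave the change over the same times without Ang II.

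Ang II is the peptide of the renin-angiotensin system that constricts vessels and acts on vascular cells through the AT1 receptor. Its chronic infusion in hyperlipidaemic mice is a widely used model of aneurysm of the suprarenal aorta, in which early entry of leukocytes and damage to the elastic layers are followed by thickening and remodelling of the wall. The wall itself consists of an endothelial lining, a media of smooth muscle cells between elastic lamellae, and an outer adventitia of fibroblasts and collagen that borders fat, nerves and ganglia.

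Each value is a log2 ratio of aorta (dye Cy5) to a commercial universal mouse reference RNA (dye Cy3) that was the same on every array, so a difference of 1 between groups is a 2-fold difference. A gene was called at an adjusted p under 0.05 (limma, Benjamini-Hochberg over 18687 genes). Between 52.4 and 58.4 percent of spots were well above background for aorta RNA in the 7 day arrays, and between 52.7 and 59.7 percent in the 28 day arrays. Arrays of the 7 day group correlated with each other at 0.895 to 0.95 over genes, and those of the 28 day group at 0.717 to 0.894. Some aortas stood apart. Replicates 5 and 6 at 28 days had high means over the list of B cell genes, 2.56 and 1.78 against -0.81 to -0.01 in the other 4. Replicates 1 and 2 at 7 days had low means over the brown adipocyte list, 2.05 and 2.75 against 4.74 and 3.86 in replicates 3 and 4. The contractile smooth muscle list, the marker of the labelled tissue, had means of 2.25 to 2.80 at 7 days and 1.52 to 3.03 at 28 days, above the reference on all 10 arrays.

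Between 7 and 28 days of Ang II, more genes fell than rose. Of 18687 genes tested, 636 were called (3.4 percent), 550 lower at 28 days (2.94 percent) and 86 higher (0.46 percent). A change of at least 2-fold was reached by 208 of the lower and 30 of the higher genes. The arrays of both groups did not overlap for 667 genes that were lower at 28 days (3.57 percent) and for 218 that were higher (1.17 percent), and 354 and 32 of these were also called. The median change of all genes tested was 0.000315. The genes that fell were led by Cthrc1, a secreted protein of activated fibroblasts, and included collagens, enzymes that modify and cross-link collagen, translocation and trafficking genes of the secretory pathway, and genes of mitosis. The genes that rose included Fasn and Pcx of fat and carbohydrate metabolism and Gpnmb, known from lipid-laden macrophages.

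The number called depended on single aortas. It was 305, 192 and 413 without 7 day replicates 1, 2 and 4, 338 and 318 without 28 day replicates 2 and 6, and 1302 without 28 day replicate 5. It was 796 without both 28 day replicates 5 and 6, and 39, none of them higher, without both 7 day replicates 1 and 2. Within the first scan day, which held 3 aortas of each group, 754 genes were called, and within the second, which held 1 aorta of 7 days and 3 of 28 days, 9 were called. The 754 genes of the first scan day held 306 of the 636, and 38 of the 67 called named genes lost their call there. With scan day as a term in the model 600 genes were called. The share of calls that were higher at 28 days, 13.5 percent, was 32.0 percent within the first scan day, 29.0 percent without 28 day replicate 5 and 39.6 percent with arrays weighted by their quality.

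Fibrillar and network collagens, the proteins that form the tensile scaffold of the wall, were lower at 28 days without exception among those measured. Of the 20 tested, 8 fell, none rose and all 20 had a negative difference, with a median of -1.57. The share of all genes called lower was 2.94 percent. Col5a1, a chain of collagen V that starts and limits fibril growth, read 2.46, 2.99, 2.09 and 2.36 at 7 days. At 28 days it ran from -0.73 to 1.98 with a median of 0.20. All 28 day aortas lay below all 7 day aortas, with replicate 1 closest to them, and the difference was -2.21 (SE 0.484, adjusted p = 0.00743). Col3a1, the main chain of collagen III, read 4.22, 4.5, 3.77 and 3.97 at 7 days and 0.95 to 3.44, median 1.92, at 28 days. It fell by 1.97 (SE 0.564, adjusted p = 0.0458) without overlap. Its brightest probe gave that value, and 2 dimmer probes gave -1.64 and -0.16. Col5a1 lost its call without 7 day replicate 2 (adjusted p = 0.0566), and Col3a1 without any 1 of the 4 aortas of 7 days or 28 day replicates 2, 4 and 6 (adjusted p up to 0.182).

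Col6a3, a chain of the beaded filaments of collagen VI, fell by 2.03 (SE 0.587, adjusted p = 0.0481). Its 28 day replicate 1, at 3.59, lay above 2 of the 7 day aortas, and its call was lost in every leave-one-out fit except those without 28 day replicate 1 or 3 (adjusted p up to 0.19). A dimmer probe of Col6a3 gave -0.775. Col1a1, the main chain of collagen I, did not pass, with 4.56, 4.96, 3.96 and 4.09 at 7 days and 0.72 to 3.58, median 2.27, at 28 days. The groups did not overlap, and the difference was -2.14 (SE 0.651, adjusted p = 0.0622). Col8a1, a short-chain collagen that smooth muscle cells make after injury, did not pass at -1.62 (SE 0.518, adjusted p = 0.0772), and its groups overlapped. The probe that carries the name of Col2a1, the collagen of cartilage, fell by 1.97 (SE 0.478, adjusted p = 0.0168), and a dimmer probe of that gene differed by -0.17. The call was lost without 7 day replicate 1 or 2 or 28 day replicate 6 (adjusted p up to 0.0931). The median level of the list in saline aortas was 0.338 at 7 days and 0.635 at 28 days. Under Ang II that median was 3.00 at 7, 2.07 at 14 and 1.49 at 28 days. Fewer cells of a type and less RNA per cell cannot be told apart in RNA from whole aortas. The count of 8 collagens was 3, 2 and 4 without 7 day replicates 1, 2 and 4, 4, 4 and 3 without 28 day replicates 2, 4 and 6, and 4 with the 4 scores of neighbouring tissue in the model. Without 28 day replicate 1 or 5 the count rose to 12. It was 3 with slide as a fixed block and 0 within each of the scan days, where the list medians were -1.19 and -1.83.

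Enzymes that fold, hydroxylate and cross-link collagen moved the same way. Of 26 tested, 10 fell and none rose, beside 2.94 percent of all genes called lower. All 26 differences were negative, and the median was -0.95. Lox, the lysyl oxidase that cross-links collagen and elastin, read 1.51, 1.65, 0.84 and 1.27 at 7 days and -1.89 to 0.68, median -0.75, at 28 days. The groups did not overlap, and Lox fell by 2.06 (SE 0.434, adjusted p = 0.00512). Loxl2, a related oxidase, fell by 1.90 (SE 0.328, adjusted p = 0.000768), from 2.43, 2.78, 2.31 and 2.40 to between -0.34 and 1.38, median 0.51. Fkbp10, a chaperone of procollagen, fell by 1.90 (SE 0.376, adjusted p = 0.00289). Plod2, which hydroxylates the lysines that become cross-links, fell by 1.86 (SE 0.354, adjusted p = 0.00209). These 4 genes were lower in every 28 day aorta than in every 7 day aorta, and each stayed called when any single aorta of the pair of groups was left out. The count of 10 became 6 and 4 without 7 day replicates 1 and 2, and 6 without 28 day replicate 2 or 6. Without 28 day replicates 1 and 5 the count was 11 and 12. It was 4 with the scores of neighbouring tissue in the model, 5 with slide as a fixed block, and 3 and 0 within the first and second scan day.

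**Figure D1:**
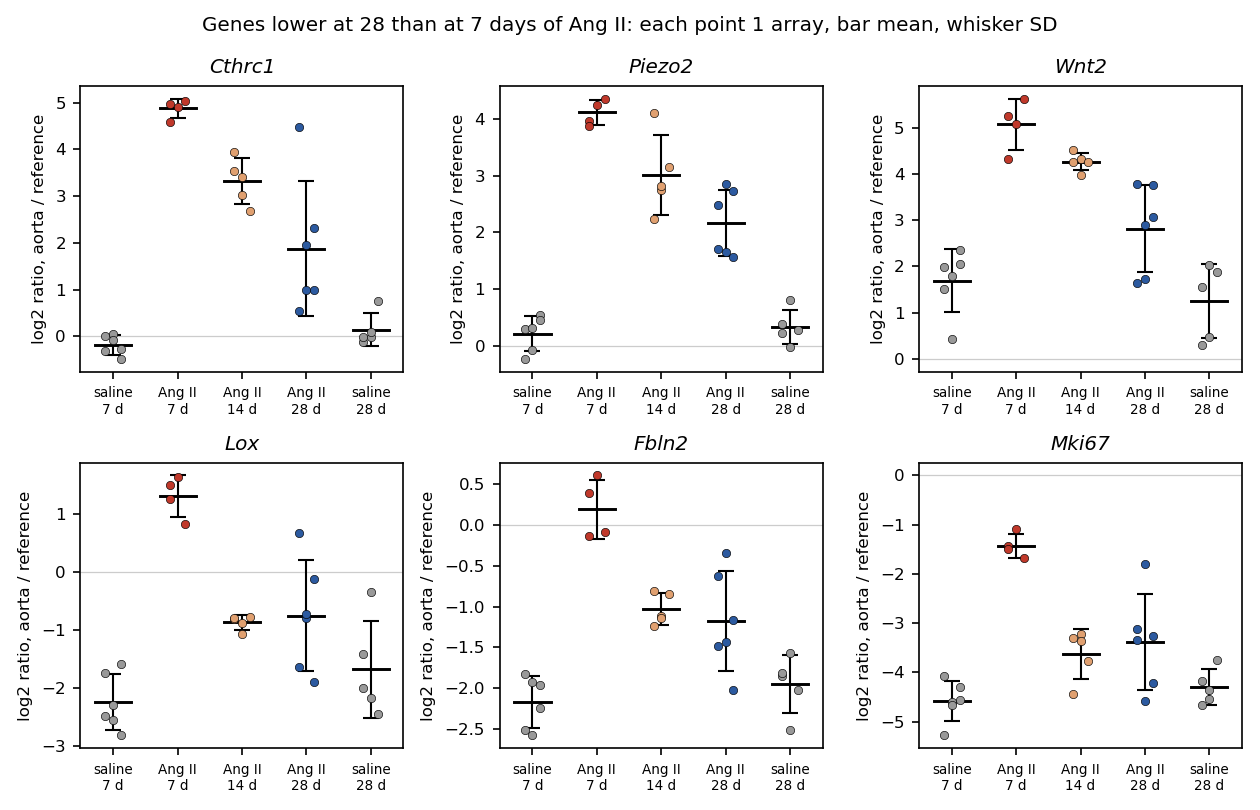
Log2 ratio of aorta to reference (vertical axis) of 6 genes in saline aortas of 7 and 28 days and Ang II aortas of 7, 14 and 28 days; each point is 1 array, the bar is the group mean and the whisker 1 SD. The 7 day Ang II aortas sit above all saline aortas of 7 days in each panel, and the 28 day Ang II aortas lie below all 7 day Ang II aortas in each panel, with Cthrc1 of 28 day replicate 1 at 4.48 close under them.

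Components of elastic fibres divided. Of 19 tested, 5 fell and none rose, with a median of -0.81 and 4 positive differences, beside 2.94 percent of all genes called lower. Fbln2, a fibulin that binds tropoelastin and fibrillin, read 0.39, 0.61, -0.08 and -0.13 at 7 days and -2.02 to -0.34, median -1.29, at 28 days. The groups did not overlap, and it fell by 1.38 (SE 0.228, adjusted p = 0.000453). Fbn1, which forms the microfibrils that carry elastin, fell by 1.72 (SE 0.471, adjusted p = 0.0358), with 28 day replicate 1 at 3.13 inside the 7 day range of 2.43 to 3.83. Efemp2, the fibulin that directs lysyl oxidase to elastin, fell by 1.5 (SE 0.419, adjusted p = 0.0395). Both lost their call without 7 day replicate 1 or 2 or 28 day replicate 2, 4 or 6, and Efemp2 also without 7 day replicate 4 (adjusted p up to 0.182 and 0.17). Elastin itself, Eln, did not pass, with 3.89, 3.78, 4.16 and 4.10 at 7 days and 2.77 to 4.09, median 3.15, at 28 days. Its difference was -0.65 (SE 0.460, adjusted p = 0.487). The count of 5 was 1 without 7 day replicate 1 or 2 or 28 day replicate 2, 4 or 6, 3 without 7 day replicate 4, 1 with the scores of neighbouring tissue in the model or with slide as a fixed block, and 2 and 0 within the first and second scan day.

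Among matricellular proteins and proteoglycans, which sit in the matrix and act on cells, 5 of 30 fell, beside 2.94 percent of all genes. None rose and 29 differences were negative, with a median of -0.84. Cthrc1 had the largest difference of any named gene. It read 4.98, 4.92, 5.03 and 4.58 at 7 days and 0.54 to 4.48, median 1.47, at 28 days. Replicate 1 at 28 days was almost as high as the 7 day aortas, and the other 5 lay at 2.32 or lower. The fall was 3.00 (SE 0.418, adjusted p = 5.16e-05). At 14 days the mean was 3.33 ± 0.485 (SD, n = 5), and in saline it was -0.18 ± 0.21 (SD, n = 6) at 7 days and 0.14 ± 0.35 (SD, n = 5) at 28 days. Ccn4, a target of Wnt signalling, fell by 1.84 (SE 0.438, adjusted p = 0.0143), and Cilp, an extracellular protein of cartilage and fibrotic tissue, by 1.82 (SE 0.406, adjusted p = 0.00862), both without overlap. Vcan, the large proteoglycan versican, fell by 1.61 (SE 0.393, adjusted p = 0.0175). Its 28 day replicate 1, at 1.49, lay within the 7 day range, and the other 5 at 0.13 or lower. A dimmer probe of Vcan gave -0.48. Ccn4 lost its call without 7 day replicate 1 or 2 (adjusted p up to 0.113), and Vcan without 7 day replicate 2 or 28 day replicate 6 (adjusted p up to 0.111).

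Several well-known genes of this list did not pass. Postn, periostin, read 5.58, 5.82, 6.02 and 5.69 at 7 days and 3.49 to 5.01, median 4.12, at 28 days, a difference of -1.54 (SE 0.495, adjusted p = 0.0789) without overlap. A dimmer probe of Postn gave -0.325. Tnc, tenascin C, differed by -1.16 (SE 0.385, adjusted p = 0.0906), and dimmer probes of it gave -0.06 and -0.43. Ccn2, a target of TGF-beta, differed by -1.09 (SE 0.737, adjusted p = 0.461) and Thbs1, thrombospondin 1, by -0.23 (SE 0.398, adjusted p = 0.811). Spp1, osteopontin, ran from -4.69 to -2.58 at 7 days and from -5.60 to -0.67 at 28 days. Its difference was 0.19 (SE 0.821, adjusted p = 0.937), and its sign turned under 6 alternatives. Every Ang II value of Spp1 in both groups lay above its saline mean of -5.93 at 28 days. The count of 5 in this list was 2 without 7 day replicate 2 and 8 without 28 day replicate 1. It was 3 with the scores of neighbouring tissue, 1 with slide as a fixed block, and 0 and 1 within the first and second scan day.

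Proteases and their inhibitors did not move as a block. Of 38 tested, 4 fell and 1 rose, beside 2.94 and 0.46 percent of all genes, with a median of -0.30. Timp1, the secreted inhibitor of metalloproteinases, read 3.62, 2.87, 2.51 and 2.85 at 7 days and 0.13 to 1.82, median 0.82, at 28 days. It fell by 1.97 (SE 0.513, adjusted p = 0.0277) without overlap, and the call was lost (highest adjusted p 0.121) without any 1 of 7 day replicates 1, 2 and 4 and 28 day replicates 2, 4 and 6. Mmp14, the membrane-bound metalloproteinase that activates Mmp2, fell by 1.77 (SE 0.347, adjusted p = 0.00265). Its 7 day aortas read 1.52, 1.72, 0.54 and 1.33 and its 28 day aortas -1.52 to 0.57, median -0.48, so that replicate 5 of 28 days just passed the lowest 7 day aorta. Adamts4, an aggrecanase that also cleaves versican, fell by 0.89 (SE 0.191, adjusted p = 0.00619).

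Mmp12, the elastase of macrophages, was the only member of that list called higher. It read 0.36, -0.38, -0.15 and -0.13 at 7 days, all 4 not well above background, and 0.01, 0.99, 1.91, 1.48, 1.37 and 0.01 in 28 day replicates 1 to 6, of which 4 were well above background. The groups overlapped. Set against the lowest signal well above background on each 7 day array, the mean 28 day signal was 2.04-fold higher. That mean includes the 28 day arrays not well above background, so the value is no strict lower bound. The log2 ratio differed by 1.04 (limma, adjusted p = 0.0117). Mmp12 passed the filter on dim probes with 4 arrays of 28 days and none of 7 days, and under the stricter filter it was not tested. Its call is thus no independent support for a rise. At 14 days the mean was -0.24, and in saline -0.18 at 7 days and -0.09 at 28 days. Without 7 day replicate 2 the call was lost (adjusted p = 0.085). The gelatinases and collagenases gave no call: Mmp2 differed by -0.21 (SE 0.355), Mmp9 by 0.49 (SE 0.345), Mmp3 by -0.23 (SE 0.687) and Mmp13 by 0.05 (SE 0.485), with adjusted p of 0.808, 0.478, 0.898 and 0.972. The 4 falls of the list were 2 without 7 day replicate 1, 2 or 4 or without 28 day replicate 4 or 6, 2 with slide as a fixed block, and 1 within the second scan day.

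Genes of signalling and the cell surface were also among the largest falls. Wnt2, a secreted Wnt ligand, read 5.26, 5.07, 5.62 and 4.33 at 7 days and 1.65 to 3.78, median 2.98, at 28 days. It fell by 2.26 (SE 0.389, adjusted p = 0.000742) without overlap, and its 28 day values stayed above the saline means of 1.69 and 1.24 except in replicate 4, at 1.65, against the saline mean of 7 days. Piezo2, a mechanically gated cation channel, read 3.97, 4.25, 4.35 and 3.88 at 7 days and 1.57 to 2.86, median 2.10, at 28 days. It fell by 1.95 (SE 0.276, adjusted p = 6.28e-05) without overlap, and a dimmer probe of the gene gave -0.80. Arsi, an arylsulfatase, read 3.66, 3.83, 3.63 and 3.82 at 7 days and 0.59 to 2.16, median 1.66, at 28 days, a fall of 2.13 (SE 0.270, adjusted p = 1.2e-05). Its 4 aortas of 7 days lay close together, and the groups were separated by more than 1 unit. Has1, a hyaluronan synthase, read 3.42, 3.26, 2.64 and 1.63 at 7 days and 0.41 to 1.31, median 0.63, at 28 days, a fall of 2.03 (SE 0.381, adjusted p = 0.00173). These 4 genes kept their call whichever single aorta was left out.

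Esm1, a proteoglycan secreted by activated endothelium, fell by 2.47 (SE 0.684, adjusted p = 0.038), from 3.47, 3.78, 4.27 and 3.87 to between -0.66 and 3.04, median 1.86. Its call was lost in 7 of 10 leave-one-out fits (adjusted p up to 0.124; each 7 day aorta and 28 day replicates 2, 4 and 6). Ckap4, a protein of the rough endoplasmic reticulum, fell by 2.17 (SE 0.421, adjusted p = 0.00238) and Fstl1, a secreted glycoprotein, by 1.98 (SE 0.545, adjusted p = 0.0369), both without overlap. Fstl1 lost its call without 7 day replicate 1 or 2 or 28 day replicate 2, 4 or 6 (adjusted p up to 0.178). Of 35 Wnt, Fgf and Igf growth factors and their binding proteins, 3 fell and none rose, beside 2.94 percent of all genes called lower. The median was -0.20. The other falls of that list beside Wnt2 were the Wnt antagonist Sfrp1, at -0.94 (SE 0.270, adjusted p = 0.0457), and Igf1, at -0.92 (SE 0.253, adjusted p = 0.0361). The count of 3 was 1 without 7 day replicate 1, 2 or 3 or without 28 day replicate 2, 3 or 6. The transcription factor Sox9, known for cartilage, fell by 1.34 (SE 0.279, adjusted p = 0.00447) without overlap, and lost its call without 7 day replicate 2 (adjusted p = 0.0545).

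Genes of the secretory pathway, through which collagens leave the cell, fell in part. Of 30 tested, 9 fell and none rose, with a median of -0.51 and 3 positive differences, beside 2.94 percent of all genes called lower. Sec61a1 and Sec61b, subunits of the channel that passes new proteins into the endoplasmic reticulum, fell by 1.04 (SE 0.212, adjusted p = 0.00386) and 1.06 (SE 0.208, adjusted p = 0.00289). Dimmer probes of Sec61a1 gave -0.10 and -0.84. Sec61b read 0.65, 0.77, 0.75 and 0.54 at 7 days and -0.97 to 0.19, median -0.38, at 28 days, without overlap. Kdelr3 and Kdelr2, receptors that return proteins to the reticulum, fell by 1.35 (SE 0.360, adjusted p = 0.0321) and 1.17 (SE 0.297, adjusted p = 0.0237). Both receptors lost their call without 7 day replicate 1 or 2 or 28 day replicate 2 or 6, and Kdelr3 also without 7 day replicate 4 (adjusted p up to 0.123 for Kdelr2 and 0.176 for Kdelr3). The 9 falls were 3, 3 and 5 in number without 7 day replicates 1, 2 and 4, 4 and 5 without 28 day replicates 2 and 6, and 2 with the scores of neighbouring tissue in the model. Without 28 day replicates 1 and 5 they were 11 and 10. They were 5 with slide as a fixed block, and 3 and 0 within the first and second scan day.

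The cell cycle list held the largest share of calls of any list. Of 40 genes tested, 23 fell, none rose and all 40 differences were negative, with a median of -1.03, beside 2.94 percent of all genes called lower. Mki67, the proliferation antigen Ki-67, read -1.44, -1.09, -1.68 and -1.49 at 7 days and -4.58 to -1.80, median -3.31, at 28 days. All 28 day aortas lay below all 7 day aortas, with replicate 5 at -1.80 the nearest, and the fall was 1.96 (SE 0.371, adjusted p = 0.00187). Birc5, survivin, read -0.60, -0.78, -1.46 and -1.54 at 7 days and -3.82 to -1.90, median -3.08, at 28 days, a fall of 1.87 (SE 0.279, adjusted p = 0.000137). Cdc20, which activates the anaphase-promoting complex, read -1.20, -0.92, -1.5 and -1.53 at 7 days and -3.65 to -2.08, median -3.18, at 28 days, a fall of 1.76 (SE 0.242, adjusted p = 4.57e-05). Cenpe, the kinetochore motor, fell by 1.82 (SE 0.279, adjusted p = 0.000196), and a dimmer probe of it gave -0.53. In each of these 4 genes replicate 5 was the highest 28 day aorta. Top2a, the topoisomerase of dividing cells, did not pass at -0.83 (SE 0.247, adjusted p = 0.0575), although its groups did not overlap.

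The median level of the list was -2.92 in saline aortas of 7 days, -1.42 in Ang II aortas of 7 days, -2.65 at 14 days, -2.48 at 28 days and -2.64 in saline aortas of 28 days. The mean over the list was -1.70 to -1.23 in the 7 day aortas and -2.78 to -1.86 in the 28 day aortas, without overlap. The 23 calls ran from 18 without 7 day replicate 2 to 26 without 28 day replicate 5. They were 24 within the first scan day, 0 within the second, 16 with the scores of neighbouring tissue in the model, and 6 without both 7 day replicates 1 and 2.

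Many genes of mitosis share a pair of short promoter elements: TTTGAA, the cell cycle genes homology region, and CCAAT, bound by NF-Y. Promoter windows of RefSeq (build GRCm38.p6), 250 bases before to 50 after the start of a gene, were searched on both strands, with the first window listed for each gene. TTTGAA was in 18.1 percent and CCAAT in 37.9 percent of all 27025 windows, and both were in 7.12 percent. In the 12260 windows of genes tested here these shares were 12.5, 38.2 and 5.11 percent. Of the 40 cell cycle genes 34 had a window and 18 of these held both, and of the 23 that fell 19 had a window and 11 held both. Of these 11, 3 with large falls are shown to let the spacing of both elements be seen. They are examples and not a ranking of all 11. Each match on either strand is in capitals, and ATTGG and TTCAAA are the same elements read on the other strand. Mki67 lies at chr7:135716330-135716629 on the minus strand, Cdc20 at chr4:118437294-118437593 on the minus strand, and Cdkn3, a phosphatase of cyclin-dependent kinases that fell by 1.67, at chr14:46760291-46760590 on the plus strand.
Mki67: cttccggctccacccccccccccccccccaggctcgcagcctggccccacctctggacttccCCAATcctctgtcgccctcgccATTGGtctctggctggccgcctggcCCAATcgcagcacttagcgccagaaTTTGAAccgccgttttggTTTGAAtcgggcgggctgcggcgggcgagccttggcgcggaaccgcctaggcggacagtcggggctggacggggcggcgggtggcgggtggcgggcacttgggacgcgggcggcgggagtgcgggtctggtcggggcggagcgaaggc
Cdc20: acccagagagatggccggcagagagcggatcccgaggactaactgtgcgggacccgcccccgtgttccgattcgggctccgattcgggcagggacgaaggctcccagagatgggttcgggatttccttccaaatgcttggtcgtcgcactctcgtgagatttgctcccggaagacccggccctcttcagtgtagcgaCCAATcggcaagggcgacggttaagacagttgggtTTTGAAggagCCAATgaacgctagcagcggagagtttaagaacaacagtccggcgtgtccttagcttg
Cdkn3: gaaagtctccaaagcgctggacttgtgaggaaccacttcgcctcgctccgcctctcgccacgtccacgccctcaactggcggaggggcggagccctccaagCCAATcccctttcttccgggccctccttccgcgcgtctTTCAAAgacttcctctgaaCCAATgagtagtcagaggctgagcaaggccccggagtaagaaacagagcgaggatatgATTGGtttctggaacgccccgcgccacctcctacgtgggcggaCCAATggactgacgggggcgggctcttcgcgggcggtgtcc

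**Figure D2:**
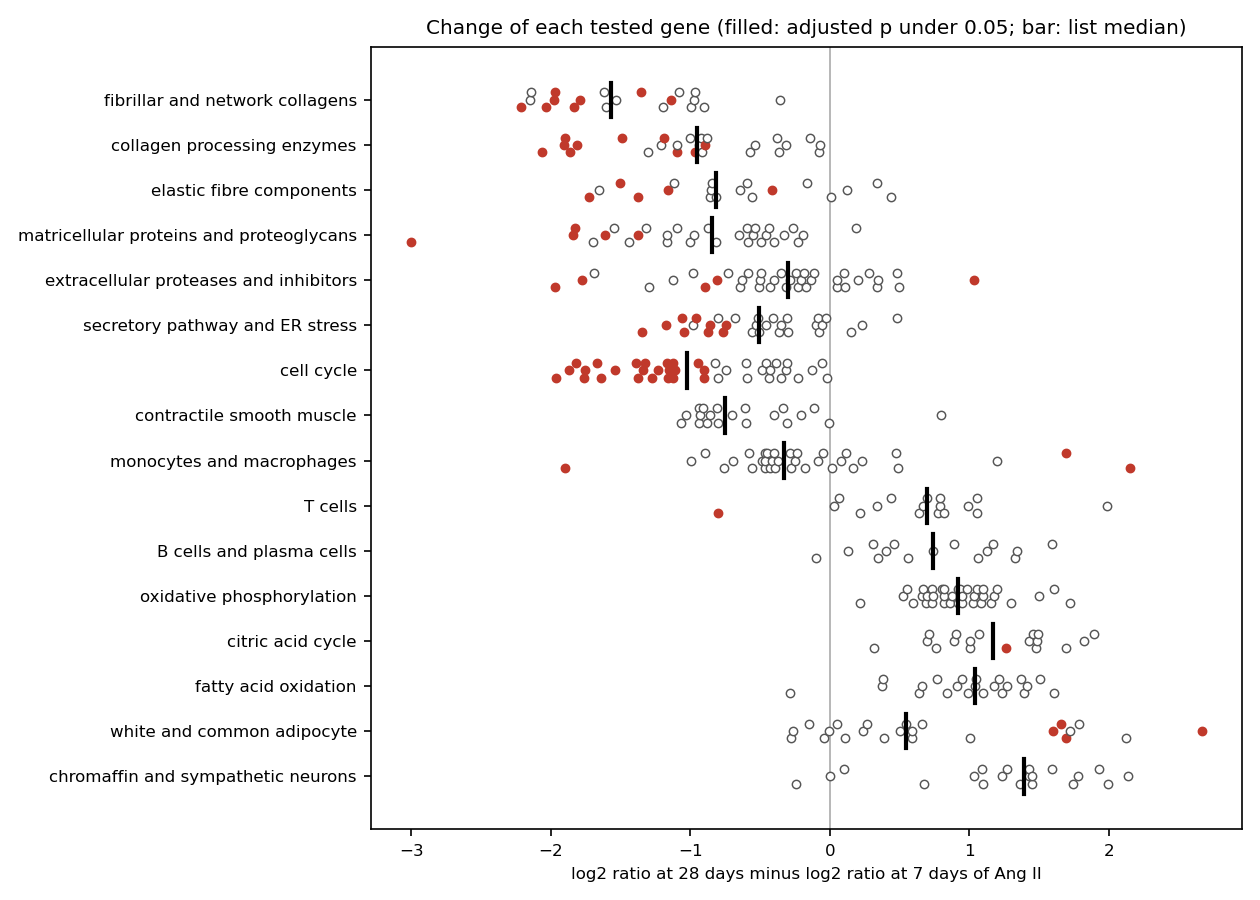
Difference in log2 ratio between 28 and 7 days of Ang II (horizontal axis) for each tested gene of 16 lists (rows); filled points were called at an adjusted p under 0.05 and the black bar is the list median. Collagens and cell cycle genes lie wholly below 0, oxidative phosphorylation genes wholly above 0 with none of the 37 called, and most other lists lie on both sides.

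Macrophage genes did not move together. Of 34 tested, 2 rose and 1 fell, beside 0.46 and 2.94 percent of all genes. The median of -0.33 was -0.57 within the first scan day and turned to 0.45 within the second. Gpnmb, a glycoprotein of lysosome-rich and lipid-laden macrophages, read -2.09, -2.64, -3.13 and -2.41 at 7 days and -1.93, -0.03, 0.48, 1.69, -0.69 and -2.04 in 28 day replicates 1 to 6. All 28 day aortas lay above all 7 day aortas, replicates 1 and 6 by little, and the rise was 2.15 (SE 0.467, adjusted p = 0.00704). It was called in all 10 leave-one-out fits. The 28 day replicates 1 and 6 that were low in Gpnmb were also the lowest in Mmp12. The mean of Gpnmb was -2.77 ± 0.27 (SD, n = 6) in saline at 7 days and -2.30 ± 0.35 (SD, n = 5) in saline at 28 days. Ccr2, the chemokine receptor of inflammatory monocytes, read 4.89, 4.75, 4.51 and 3.97 at 7 days and 1.80 to 3.91, median 2.38, at 28 days. It fell by 1.90 (SE 0.528, adjusted p = 0.0392) without overlap, and lost its call in 7 of 10 leave-one-out fits (adjusted p up to 0.156; each 7 day aorta and 28 day replicates 2, 4 and 6).

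General macrophage markers gave no call. Adgre1, a receptor on the surface of mature macrophages, differed by -0.56 (SE 0.272, adjusted p = 0.283), and Cd68 by 0.17 (SE 0.326, adjusted p = 0.837). Trem2, a lipid receptor of macrophages, ran from 0.14 to 1.83 at 7 days and from -0.92 to 2.10 at 28 days, a difference of -0.23 (SE 0.426, adjusted p = 0.823). The mean over the list was 1.70 to 2.29 at 7 days and 1.09 to 2.44 at 28 days, and -0.19 to 0.71 in saline aortas of 28 days. Lpl, lipoprotein lipase, is in this list and also in the adipocyte list, and is described with the latter. The 2 rises of the list were 1 without 7 day replicate 1, 2 or 4 or 28 day replicate 1, 2, 4 or 6.

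Lymphocyte genes were highest in 2 of the 6 aortas of 28 days. Of 17 T cell genes 16 had a positive difference, with a median of 0.69, and of 15 B cell and plasma cell genes 14, with a median of 0.74. None of these positive differences passed. The T cell mean was 1.62 and 1.54 in 28 day replicates 5 and 6, -0.40 to 0.01 in the other 4, and -0.44 to 0.38 at 7 days. Replicate 3 of 7 days had the highest means of its group, 0.38 for T cells and 0.58 for B cells, against -0.77 to -0.63 for B cells in the other 3. Cd79a, the signalling chain of the B cell receptor, read 1.5 and 0.85 in replicates 5 and 6 and -0.10 to 0.08 in the others, and was not well above background on any 7 day array and on 4 of the 28 day arrays. Against the lowest signal well above background at 7 days its mean 28 day signal, dim arrays included, was 1.19-fold higher, which is no strict lower bound. The log2 ratio differed by 0.35, which did not pass (limma, adjusted p = 0.377). Without both replicates the median difference was 0.04 for the T cell list and -0.12 for the B cell list. The 1 call in the T cell list, a fall of Cd8b1 by 0.80 (SE 0.141, adjusted p = 0.00088), came from the brighter probe. The dimmer probe of the same gene gave 1.39, and the mean of both turned the sign, to 0.29. Irf4, a transcription factor of lymphocytes and dendritic cells, rose by 1.76 (SE 0.426, adjusted p = 0.0169), from -1.94, -1.72, -1.14 and -1.27 to between -1.02 and 1.98, median 0.13. Its highest value was that of replicate 6, and its call was lost without that aorta or without 7 day replicate 1 or 2 (adjusted p up to 0.082).

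Cytokines and chemokines gave 2 falls among 33 tested, near the 2.94 percent of all genes called lower, with a median of -0.05. Il33, an alarmin of stromal cells, read 2.84, 3.27, 2.66 and 2.04 at 7 days and 0.71 to 2.32, median 1.38, at 28 days. It fell by 1.18 (SE 0.299, adjusted p = 0.0233), with 28 day replicate 1 above the lowest 7 day aorta, and lost its call without 7 day replicate 1 or 2 or 28 day replicate 2, 4 or 6 (adjusted p up to 0.158). Il11, a cytokine of fibrosis, fell by 0.83 (SE 0.196, adjusted p = 0.0139) without overlap, a call lost without 7 day replicate 1 or 2 (adjusted p up to 0.0903). Il6 read 0.63, 0.36, 0.11 and -0.19 at 7 days and -1.13 to -0.26, median -0.59, at 28 days. The groups did not overlap, but the difference of -0.84 (SE 0.404, adjusted p = 0.273) did not pass. Il1b likewise did not overlap and did not pass, at -1.09 (SE 0.455, adjusted p = 0.194). The chemokines Ccl2 and Ccl8 differed by -0.86 (SE 0.425, adjusted p = 0.288) and -1.04 (SE 0.438, adjusted p = 0.198). Isg15, an interferon-induced ubiquitin-like protein, was the 1 call among 24 interferon response genes, a share also near that of all genes, and a fall of 0.98 (SE 0.240, adjusted p = 0.0175). Mpo, myeloperoxidase, was the 1 call among 11 neutrophil genes, a fall of 0.98 (SE 0.267, adjusted p = 0.0359), with 0.28, 1.84, 1.69 and 0.56 at 7 days and -0.11 to 0.44 at 28 days. Mpo was well above background on only 3 of the 6 arrays of 28 days, so the size of its fall is uncertain. Isg15 lost its call without 7 day replicate 2 or 3 or 28 day replicate 2, and Mpo without 7 day replicate 2 or 3 or 28 day replicate 2, 3, 4 or 6 (adjusted p up to 0.135 and 0.252).

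Genes of fat synthesis and storage included the largest rise among the named genes. Of 23 white and common adipocyte genes 4 rose and none fell (0.46 percent of all genes were called higher), with a median of 0.55. Fasn, fatty acid synthase, read 0.72, 0.91, 3.60 and 3.40 at 7 days and 3.70 to 5.67, median 4.96, at 28 days. All 28 day aortas lay above all 7 day aortas, among which replicates 1 and 2 were far lower than 3 and 4, and the rise was 2.67 (SE 0.715, adjusted p = 0.0332). A dimmer probe gave 1.36. Lpl, the lipase that releases fatty acids from lipoproteins, rose by 1.70 (SE 0.463, adjusted p = 0.0364), Agpat2, of triglyceride synthesis, by 1.66 (SE 0.454, adjusted p = 0.0361), and Dgat2, of its last step, by 1.60 (SE 0.406, adjusted p = 0.0237), each with overlap between groups. A dimmer probe of Lpl gave 0.29. Adipoq, which encodes the adipokine adiponectin, differed by -0.26 (SE 0.349, adjusted p = 0.742). The 28 day mean of Fasn, 4.83 ± 0.81 (SD, n = 6), stood beside that of saline at 7 days, 4.84 ± 0.63 (SD, n = 5 with a value).

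The 4 rises did not hold over the aortas. Their number was 0, 0, 7 and 2 without 7 day replicates 1, 2, 3 and 4, and 1, 7, 0, 7 and 0 without 28 day replicates 2, 3, 4, 5 and 6. Fasn was not called without 7 day replicate 1 or 2 or 28 day replicate 2, 4 or 6 (adjusted p up to 0.189). Without 7 day replicate 1 or 2 or 28 day replicate 4 or 6, Lpl, Agpat2 and Dgat2 also lost their calls (adjusted p up to 0.185). Lpl and Agpat2 lost theirs without 7 day replicate 4 or 28 day replicate 2 as well, and Lpl without 28 day replicate 1. With the scores of neighbouring tissue in the model 2 of the list were called and its median was -0.02. Those scores include the mean over brown adipocyte genes, so that fit cannot separate genes of fat from it.

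**Figure D3:**
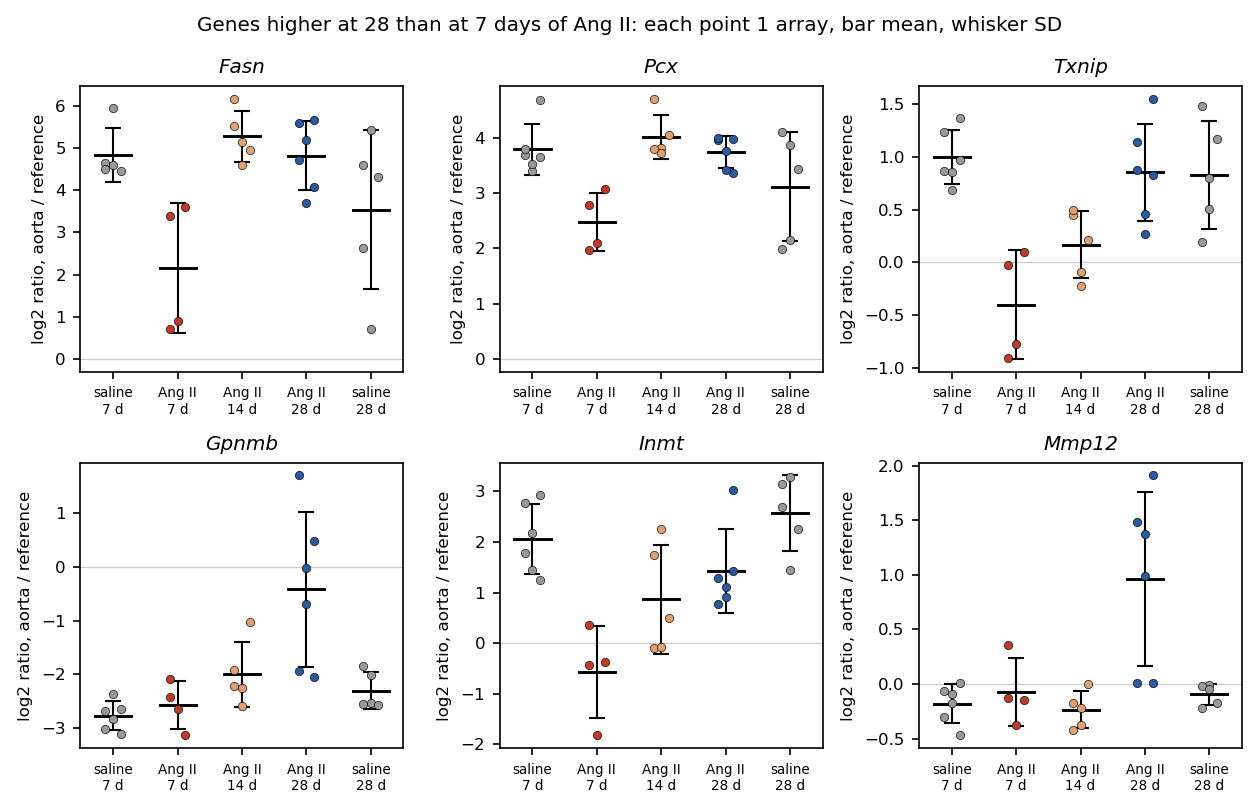
Log2 ratio of aorta to reference (vertical axis) of 6 genes that rose between 7 and 28 days of Ang II, in the same groups as the plot of genes that fell; each point is 1 array, the bar is the group mean and the whisker 1 SD. Fasn, Pcx, Txnip and Inmt are lower in the 7 day Ang II aortas than in saline aortas of 7 days, whereas Gpnmb and Mmp12 reach their highest values in the 28 day Ang II aortas, where replicates 1 and 6 stay low.

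Mitochondrial genes were higher at 28 than at 7 days of Ang II in nearly every case, and almost none passed. All 37 genes of oxidative phosphorylation tested had a positive difference, with a median of 0.92, and none was called. All 18 genes of the citric acid cycle list were positive, with a median of 1.17 and 1 call, and 21 of 22 genes of fatty acid oxidation, with a median of 1.04 and no call. The call was Pcx, pyruvate carboxylase, which read 1.97, 2.10, 3.07 and 2.79 at 7 days and 3.37 to 4.00, median 3.86, at 28 days. The groups did not overlap, and it rose by 1.26 (SE 0.327, adjusted p = 0.0264). Idh3a, a subunit of isocitrate dehydrogenase, read -0.81, -0.48, 1.43 and -0.01 at 7 days and 0.20 to 3.11, median 2.20, at 28 days, a difference of 1.89 (SE 0.658, adjusted p = 0.113). Uqcrfs1, of respiratory complex III, differed by 1.60 (SE 0.498, adjusted p = 0.069), and Acadm, of fatty acid oxidation, by 1.61 (SE 0.559, adjusted p = 0.112). In all 3 genes 7 day replicate 3 was the highest of its group. The mean over oxidative phosphorylation genes was -0.24, -0.08, 1.02 and 0.47 in 7 day replicates 1 to 4 and 0.43 to 2.10 at 28 days, with overlap. In the 7 day aortas it had the same order as the brown adipocyte mean, which was 2.05, 2.75, 4.74 and 3.86. The median level of the oxidative phosphorylation list was 1.83 in saline and 0.33 in Ang II aortas of 7 days. It was 1.44 at 14 days of Ang II, and 1.24 at 28 days in both Ang II and saline aortas. For the citric acid cycle list these levels were 2.14, 0.02 and 1.70, then 1.43 under Ang II and 1.20 under saline at 28 days. With the scores of neighbouring tissue in the model the median differences were 0.44 for oxidative phosphorylation, 0.69 for the citric acid cycle and 0.35 for fatty acid oxidation, with no call. The brown adipocyte score itself holds mitochondrial genes such as Cox7a1, Cox8b and Cpt1b, so that fit cannot separate these lists from it. The element AAGGTCA, bound by oestrogen-related receptors that drive such genes, was in 4.66 percent of all windows and 3.38 percent of those of genes tested. It was in 2 of 60 windows of these 3 lists, a share near that of genes tested, and the window of Pcx did not hold it.

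Pcx lost its call without 7 day replicate 1 or 2 or 28 day replicate 2, 4 or 6 (adjusted p up to 0.144), as did the count of 1 in the citric acid cycle list, which was 7 and 2 without 7 day replicates 3 and 4, and 4 and 9 without 28 day replicates 3 and 5. The count of oxidative phosphorylation genes was 4 without 7 day replicate 3, 1 and 7 without 28 day replicates 3 and 5, and 5 within the first scan day. That of fatty acid oxidation genes was 2 without 7 day replicate 3, 1 and 2 without 28 day replicates 3 and 5, and 7 within the first scan day. In glycolysis and hypoxia 2 of 26 genes rose and 1 fell, beside 0.46 and 2.94 percent of all genes. Gapdh, the glycolytic enzyme often used as a reference gene, rose by 0.70 (SE 0.201, adjusted p = 0.0481) and Adm, adrenomedullin, by 0.87 (SE 0.224, adjusted p = 0.0258), both without overlap. Slc16a3, a lactate transporter, fell by 1.01 (SE 0.281, adjusted p = 0.0399). Each of these 3 calls was lost without 7 day replicate 1 or 2 and without at least 1 of the other aortas (adjusted p up to 0.138, 0.193 and 0.196).

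Other rises without overlap were of mixed function. Inmt, an N-methyltransferase, read 0.35, -1.82, -0.38 and -0.43 at 7 days and 0.77 to 3.03, median 1.21, at 28 days, a rise of 2.00 (SE 0.499, adjusted p = 0.0213). Nampt, which makes the precursor of NAD, read -1.25, -0.77 and -0.63 in 7 day replicates 1, 2 and 4 and -0.56 to 1.80 at 28 days, a rise of 1.88 (SE 0.494, adjusted p = 0.0298). Its spot in 7 day replicate 3 carried an outlier flag and the fit left that array out. Txnip, an inhibitor of thioredoxin and of glucose uptake, read -0.91, -0.77, 0.10 and -0.02 at 7 days and 0.27 to 1.55, median 0.85, at 28 days, a rise of 1.25 (SE 0.275, adjusted p = 0.00765). Mterf2, a mitochondrial protein, rose by 0.89 (SE 0.182, adjusted p = 0.00389) and was the only one of these 4 called in every leave-one-out fit. Inmt lost its call without 7 day replicate 2, Txnip without 7 day replicate 1 or 2, and Nampt without 7 day replicate 1, 2 or 4 or 28 day replicate 1, 2 or 6 (adjusted p up to 0.171, 0.0645 and 0.151). Mturn, Pla1a, Tmem243 and Cnst rose by 1.06, 1.00, 0.98 and 0.94, with adjusted p between 0.0357 and 0.042, and each lost its call in 5 or more leave-one-out fits. Dimmer probes gave 0.35 and 0.37 for Mturn, and 0.06 and 0.785 for Tmem243.

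Marker genes of tissue around the aorta varied between the arrays. Whether the amount of such tissue differed was not tested. The brown adipocyte mean was 2.05, 2.75, 4.74 and 3.86 in 7 day replicates 1 to 4 and 3.45 to 5.07, median 4.00, at 28 days. Of its 14 genes 1 rose (0.46 percent of all genes did), Fabp3, a fatty acid binding protein, by 1.77 (SE 0.500, adjusted p = 0.0426). Its call was lost without 7 day replicate 1 or 2 or 28 day replicate 2, 4 or 6 (adjusted p up to 0.249). Ucp1, the uncoupling protein that defines brown fat, differed by 0.54 (SE 0.483, adjusted p = 0.596), with 4.03 in 7 day replicate 1 as its lowest value. The mean over 20 genes of chromaffin cells and sympathetic neurons was 0.20 to 2.33 at 7 days and 0.39 to 3.63 at 28 days, with 19 positive differences, a median of 1.4 and no call. Th, the first enzyme of catecholamine synthesis, read 0.61, -0.05, 0.12 and 2.83 at 7 days and 0.14 to 3.96 at 28 days. Chgb, chromogranin B, read 0.17 to 5.27 and 0.89 to 6.48. The mean of 15 skeletal muscle genes was 2.50 in 7 day replicate 2, -0.03 to 0.29 in the other 3, and 0.10 to 4.14 at 28 days.

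When the means of the brown adipocyte, chromaffin, kidney tubule and hepatocyte lists entered the model as 4 covariates, 263 genes were called, 239 lower and 24 higher. Cthrc1 (-2.65, adjusted p = 0.00262), Piezo2 (-1.79, adjusted p = 0.00288), Mki67 (-1.80, adjusted p = 0.0281) and Gpnmb (2.55, adjusted p = 0.00694) were among the 33 of 67 called named genes that were still called in that fit. Fasn, Pcx and Nampt were not. The scores come from the same arrays, and the brown adipocyte score holds genes of fat and mitochondria. For such genes a smaller change in that fit is partly built in. The part that neighbouring tissue plays in the other values was not tested.

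**Figure D4:**
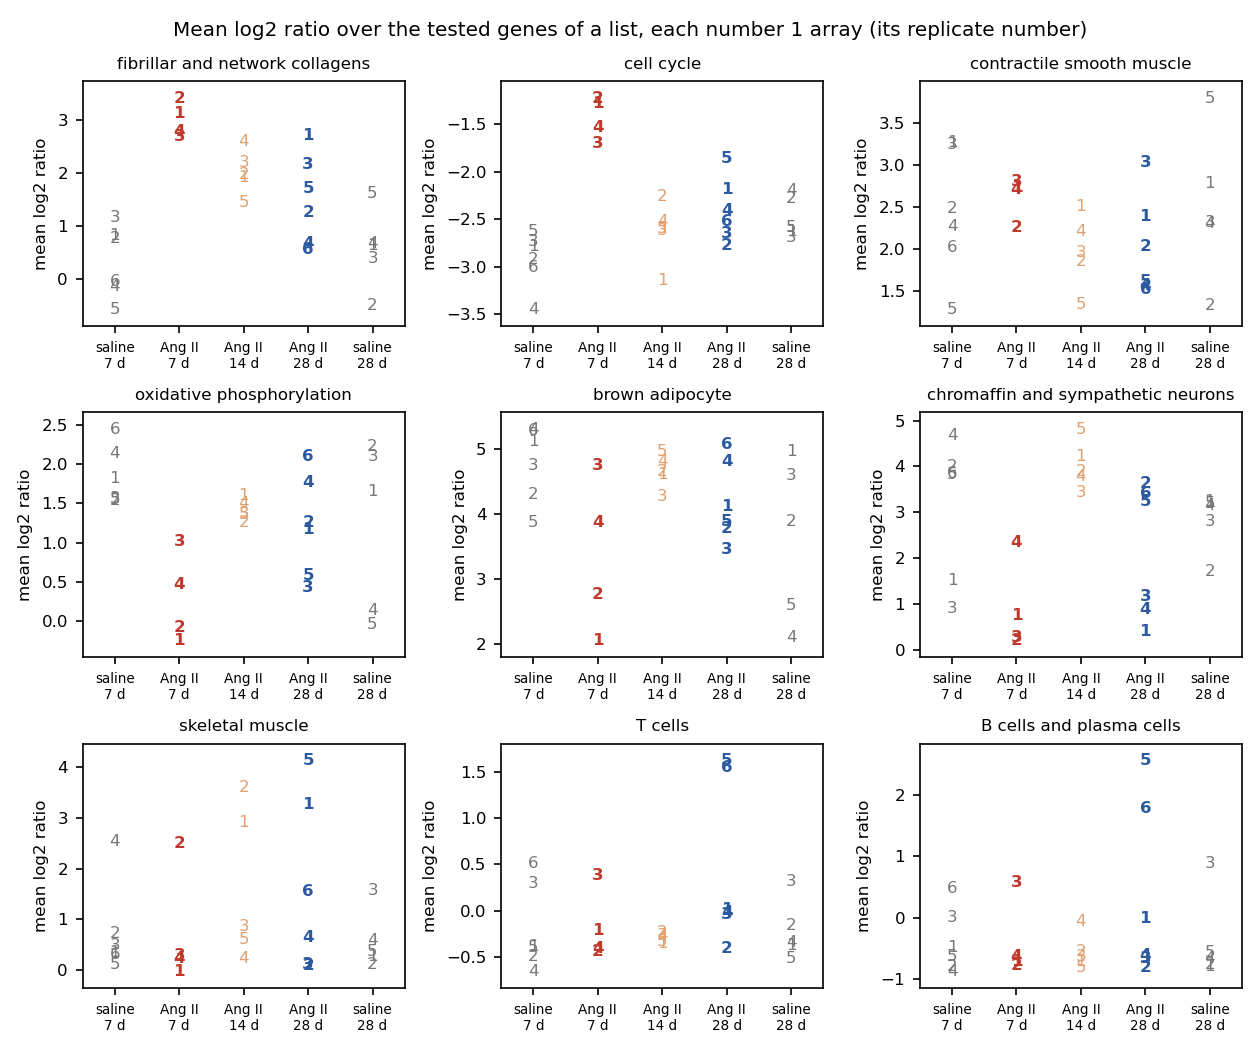
Mean log2 ratio over the tested genes of 9 lists (vertical axis), by group; each printed number is 1 array and gives its replicate number, bold for the 7 and 28 day Ang II aortas. Cell cycle means separate 7 from 28 days, collagen means do so except for 28 day replicate 1 at 2.70 against the lowest 7 day aorta at 2.69, B and T cell means are highest in 28 day replicates 5 and 6, followed among Ang II aortas by 7 day replicate 3 at 0.58 and 0.38, and fat, nerve and muscle means vary within both groups.

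Genes of the contractile apparatus gave no call. Of 20 tested 19 differences were negative, with a median of -0.75. Acta2, smooth muscle actin, read 2.97, 2.53, 2.69 and 3.18 at 7 days and 0.88 to 3.59, median 1.69, at 28 days, a difference of -0.91 (SE 0.703, adjusted p = 0.53). Myh11, smooth muscle myosin, read 5.19, 4.54, 5.43 and 4.69 at 7 days and 4.26 to 4.58 at 28 days, a difference of -0.61 (SE 0.398, adjusted p = 0.445) in which 1 of the 28 day aortas reached the 7 day range. Cnn1, calponin, differed by -0.93 (SE 0.515, adjusted p = 0.348). Within the first scan day the median of the list was -0.09 and within the second -1.14. Pecam1, an endothelial adhesion molecule, differed by 0.14 (SE 0.262, adjusted p = 0.828), and none of 19 endothelial genes was called.

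None of 30 genes of TGF-beta and BMP signalling passed, and their median was -0.15. Gdf6, a BMP ligand outside that list and chosen after its values were seen, fell by 1.87 (adjusted p = 2.95e-06). Tgfb2 came nearer to a call than Tgfb1. It read 1.80, 1.52, 1.53 and 1.19 at 7 days and -0.84 to 1.10, median 0.46, at 28 days, a difference of -1.17 (SE 0.405, adjusted p = 0.11) without overlap. Tgfb1 differed by -0.27 (SE 0.148, adjusted p = 0.343). Of 18 fibroblast and adventitial genes 16 had a negative difference, with a median of -0.53. Only 1 of the 18 was called lower, beside 2.94 percent of all genes. It was Lrrc15, a marker of TGF-beta-activated fibroblasts, which fell by 1.66 (SE 0.449, adjusted p = 0.0341) with overlap, and a dimmer probe gave -0.40. Its call was lost without 7 day replicate 2 or 4 or 28 day replicate 2, 3, 4 or 6 (adjusted p up to 0.232). Ecrg4, a secreted peptide precursor, differed by -0.60 (SE 0.565, adjusted p = 0.612).

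Among 13 genes of the renin-angiotensin system none was called. Agtr1a, the AT1 receptor through which Ang II acts, read 1.08, 0.59, 1.28 and 1.71 at 7 days and 2.87, 4.77, 2.01, 1.88, 2.61 and 3.73 at 28 days. The groups did not overlap, and the difference was 1.81 (SE 0.788, adjusted p = 0.216), with saline means of 3.74 at 7 days and 2.68 at 28 days. The highest 28 day value, that of replicate 2, belonged to the aorta with the highest chromaffin mean, 3.63, and a dimmer probe gave 0.88. Ace differed by -0.13 (SE 0.378, adjusted p = 0.895). Of 21 genes of oxidative stress 1 rose and 1 fell, beside 0.46 and 2.94 percent of all genes. Sod1, the cytosolic superoxide dismutase, rose by 0.80 (SE 0.219, adjusted p = 0.0367). Gpx7, a peroxidase of the endoplasmic reticulum, fell by 1.66 (SE 0.429, adjusted p = 0.0265). Both calls were lost without 7 day replicate 1 or 2 or 28 day replicate 2, 4 or 6, that of Sod1 also without 7 day replicate 4 and that of Gpx7 without 7 day replicate 3 (adjusted p up to 0.179 and 0.0885). Dimmer probes of Sod1 gave 0.05 and 0.07, so its rise rests on the brightest probe. Hmox1, the haem oxygenase induced by stress, differed by -0.12 (SE 0.547, adjusted p = 0.944), with 2.44 in 28 day replicate 5 and -1.64 to -0.21 in the other 5. Arg1, arginase 1, was at 5.00 in the same aorta and at -0.04 to 0.49 in the others, and differed by -0.05 (SE 0.885, adjusted p = 0.987). Neutrophil S100a8 and globin Hba-a1 differed by -0.52 (SE 0.703, adjusted p = 0.75) and -0.33 (SE 0.368, adjusted p = 0.688). Apoe transcript, from the gene disrupted in all these mice, differed by -0.25 (SE 0.259, adjusted p = 0.65).

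The change over the same times without Ang II was measured in saline aortas. No gene was called between 28 and 7 days of saline (limma, 0 of 18687, smallest adjusted p 0.161), against 2407 at an unadjusted p under 0.05, and 786 were called with the arrays scaled to a common spread. It was 327 without saline 7 day replicate 5, and 255 and 1 without saline 28 day replicates 3 and 5. Whether the change under Ang II differed from the change under saline was tested as the difference of both changes. It was called for 491 genes (2.63 percent), 369 lower (1.97 percent) and 122 higher (0.653 percent) under Ang II. The higher share of these, 24.8 percent, was 50.2 percent with array weights. Of the 636 genes called in the direct comparison 300 were also called here, 266 lower and 34 higher.

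The largest of these falls relative to saline were those of Esm1 (-3.52, SE 0.937, adjusted p = 0.037), Cthrc1 (-3.33, SE 0.573, adjusted p = 0.00147), Col3a1 (-2.74, SE 0.773, adjusted p = 0.0494), Col5a1 (-2.73, SE 0.664, adjusted p = 0.023), Lox (-2.63, SE 0.594, adjusted p = 0.0139) and Gxylt2, a xylosyltransferase (-2.60, adjusted p = 0.0219). The largest rises relative to saline were those of Fasn (3.97, SE 1.00, adjusted p = 0.029), Sec14l4, a lipid transfer protein (3.67, SE 0.995, adjusted p = 0.0411), Slc2a5, the fructose transporter (3.34, SE 0.918, adjusted p = 0.0435), Acsm3, an acyl-CoA synthetase (3.28, SE 0.916, adjusted p = 0.0473), Immp2l, a mitochondrial peptidase (3.04, SE 0.723, adjusted p = 0.0203), and Pygl, a glycogen phosphorylase (3.04, SE 0.684, adjusted p = 0.0137). In these 6 genes the saline aortas differed over time by -2.01 to -1.29, none of which passed, and the Ang II aortas by 1.58 to 2.67, which passed for Fasn alone. For Pygl a dimmer probe differed by 0.06 over time under Ang II, against 1.66 for the probe used. In the 6 genes that fell the saline aortas differed by 0.32 to 1.05, none of which passed.

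By list, 28 of 40 cell cycle genes fell more under Ang II than under saline and none the other way, with a median difference of -1.43. Of 20 collagens 5 fell more, of 26 collagen enzymes 6, and of 30 secretory genes 7. Of 23 white and common adipocyte genes 6 rose more, and of 18 citric acid cycle genes 6. For this difference 1.97 percent of all genes were called lower and 0.653 percent higher. Gpnmb, Mmp12, Wnt2 and Inmt, all called in the direct comparison, were not called here, with adjusted p of 0.139, 0.105, 0.0577 and 0.224. The count of 491 was 192 and 159 without Ang II 7 day replicates 1 and 2, 869 without replicate 3, 313 and 229 without Ang II 28 day replicates 2 and 6, and 876 and 962 without replicates 3 and 5. Among saline aortas it was 241, 764 and 239 without 7 day replicates 4, 5 and 6, and 775, 1077, 228 and 257 without 28 day replicates 2, 3, 4 and 5. Within the scan days it was 13 and 134, and with the scores of neighbouring tissue in the model it was 5. Of the 491 genes, 122 were called higher under Ang II. That number was 20 and 27 without saline 28 day replicates 4 and 5, and 31 and 21 without 7 day replicates 4 and 6. Without saline 7 day replicate 5 it was 314, and without 28 day replicates 1, 2 and 3 it was 264, 314 and 502. It was 10 and 12 without Ang II 7 day replicates 1 and 2. The citric acid cycle mean was 0.158 and -0.273 in saline 28 day replicates 4 and 5, against 1.9 to 2.4 in the others.

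**Figure D5:**
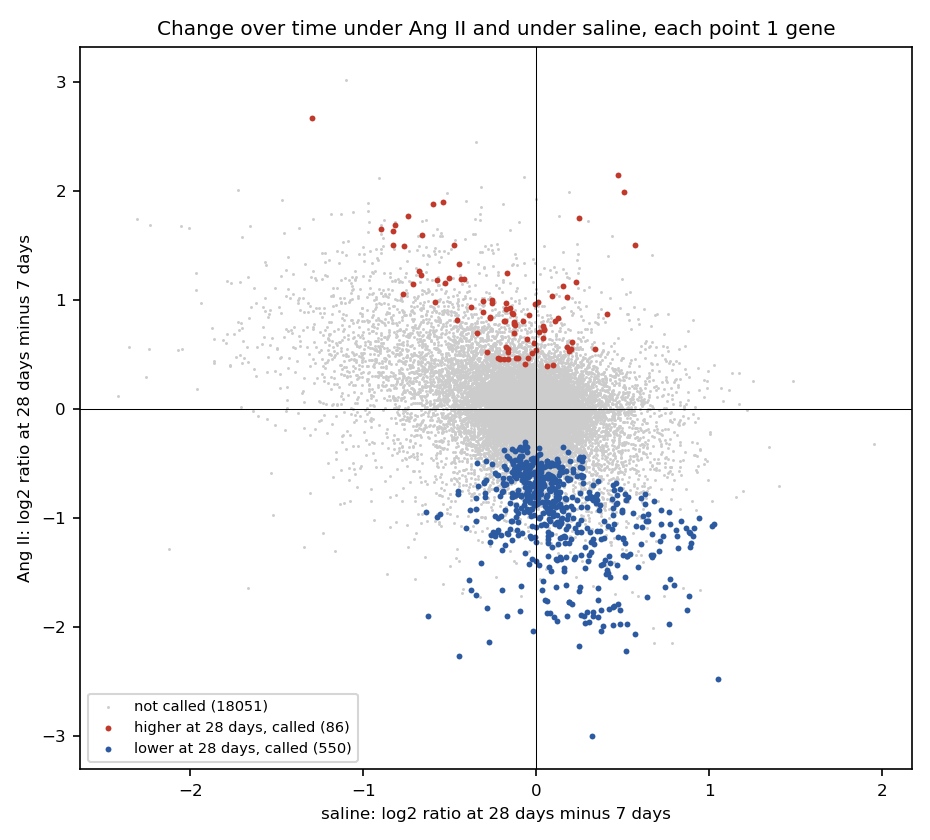
Change from 7 to 28 days under Ang II (vertical axis, log2 units) against the change over the same times under saline (horizontal axis, log2 units) for each gene; blue points are the 550 genes called lower and red points the 86 called higher under Ang II. The blue points lie on both sides of the line of no saline change, with Cthrc1 lowest at -3.00, and the red point of Fasn is highest at 2.67 on the Ang II axis and at -1.30 on the saline axis.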

How the data were processed

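RNA of 1 suprarenal aorta (Cy5) and a Universal Mouse Reference (Cy3) was hybridised per array on 35 two-colour Agilent arrays in 7 groups, with no dye swap. Per the submitters' processing notes, spots were read with Agilent Feature Extraction 9.5.3.1. The intensities used are the deposited mean and background signals per channel, per the file headers; processed signals in the same deposited files served as an alternative, and their log10 ratios as a check of scale. The authors' value table tracked those log10 ratios with a slope of 3.321 to 3.341 (r 0.986 to 1), so it is on the log2 scale, aorta over reference; its column medians ran from -0.0675 to 0.109, and how it was centred is not given in the sources used here.

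Here, intensities were corrected with normexp (offset 50) and normalized by loess within each array in limma 3.58.1 (R 4.3.3, statmod 1.5.0 and the R package data.table, version 1.17.8). Outlier-flagged spots were left out, which removed 167 values of 134 genes. Probes well above background on at least 3 arrays were kept (27846 of 41174), and the brightest stood for its gene, giving 18687 genes. Of all probes 24375 were named by accession, 6301 by current and 2426 by older symbol through RefSeq tables, and 8072 kept the name in the files. A model of 7 group means over all 35 arrays was fitted with limma, with Benjamini-Hochberg adjusted p under 0.05 as the call. A p-value here reflects how much single aortas varied within their groups, pooled over all 7 groups. The median SD over genes was 0.198 in the 7 day and 0.299 in the 28 day Ang II group. Limited to the groups compared, 252 genes were called and 43 of the 67 called named genes lost their call.

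The text names the 12 largest rises and falls without overlap, up to 4 called genes in each of 43 lists, the 6 largest differences from saline each way, and a fixed set of genes of the aneurysm field and of neighbouring tissue, called or not. Members and lists were chosen with earlier results of these data known. The replicate numbers did not pair the aortas. The steps were tested on simulated data. Alternatives covered background, normalization, filter, probe rule, arrays fitted, weights, slide, scan day, replicate block, tissue scores, a minimum fold and aortas left out; those without pairs of Ang II aortas, or without 1 aorta of 14 days, were chosen after seeing the data. Promoter windows come from RefSeq (GRCm38.p6), with no genome used here. The number of arrays limits the precision.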

Additional observations from a re-analysis of the deposited data

Results flagged for a closer look

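Some aortas lay far from the rest of their group, by a gap of more than Dixon's 95 percent limit relative to the group's range. In 28 day replicate 5 Arg1 was at 5.00 and Hmox1 at 2.44, far above the other 5 aortas of that group. Inmt was at 3.03 in 28 day replicate 3, and Vcan at 1.49 in 28 day replicate 1. At 7 days Mterf2 was low in replicate 1 at -0.75, Cd68 low in replicate 3 at -0.90, and Sfrp1 low in replicate 4 at 3.85. Means over gene lists stood apart for contractile smooth muscle (2.25) and skeletal muscle (2.50) in 7 day replicate 2, B cells (0.582) in 7 day replicate 3, the circadian clock (-0.388) in 7 day replicate 4, and kidney tubule (0.966) in 28 day replicate 2. These 12 values came from 315 groups of values, and chance gives about 1 in 20, or about 16.

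The change from 7 to 28 days differed between Ang II and saline (limma, adjusted p under 0.05 for the difference of both changes) for 51 of the 115 named genes, 34 lower and 17 higher under Ang II; 45 of them were also called in the direct comparison. All values are log2 differences of the changes, Ang II minus saline. Collagens, their cross-linking enzymes and elastic fibre genes gave Col5a1 -2.73, Lox -2.63, Col3a1 -2.74, Col2a1 -2.46, Fkbp10 -2.26, Loxl2 -2.07, Plod2 -2.15, Fbn1 -2.37 and Fbln2 -1.59. Other matrix proteins, proteases and inhibitors gave Cthrc1 -3.33, Has1 -2.01, Timp1 -2.50, Ccn4 -2.33, Vcan -2.41, Mmp14 -1.96 and Adamts4 -1.15. Genes of mitosis gave Mki67 -2.25, Birc5 -1.93, Cenpe -2.26, Cdc20 -1.82 and Top2a -1.61, and genes of the secretory pathway Ckap4 -2.42, Kdelr3 -1.87, Kdelr2 -1.64, Sec61b -1.10 and Sec61a1 -1.18. The other genes with lower values were Esm1 -3.52, Arsi -1.86, Cd8b1 -0.80, Il33 -1.57, Il11 -1.27, Sox9 -1.65, Gxylt2 -2.60 and Piezo2 -2.07. Among higher values, genes of fat, sugar and energy metabolism gave Fasn 3.97, Pcx 1.94, Lpl 2.52, Gapdh 1.04, Agpat2 2.55, Dgat2 2.26, Fabp3 2.52, Slc2a5 3.34, Acsm3 3.28 and Pygl 3.04. The others were Nampt 2.48, Txnip 1.42, Mturn 1.83, Cnst 1.32, Mterf2 1.20, Sec14l4 3.67 and Immp2l 3.04. Of these 51 genes Sec14l4, Slc2a5, Acsm3, Immp2l, Pygl and Top2a were not called in the direct comparison.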

How the results depend on the processing

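The count of 636 genes called between 28 and 7 days of Ang II, and of 491 for the difference from saline, ran from 192 to 1302 and from 159 to 1077 over single aortas left out, and that of saline from 0 to 327. With the scanner software's processed signals they were 908 and 194, with median centring 129 and 12, with scaling between arrays 78 and 20 (786 for saline), with quantile normalization 866 and 335, and with the authors' table of log2 ratios 927 and 230. Limited to the groups compared they were 252 and 238, with array weights 3329 and 2616 (2 for saline), with slide as a fixed block 358 and 171, and with slide as a random block 662 and 557. Within the first scan day they were 754 and 13, within the second 9 and 134 (76 for saline), with the neighbouring tissue scores 263 and 5, and when tested against a fold of 1.5 they were 19 and 4. Without both 7 day replicates 1 and 2, chosen after seeing the data, they were 39 and 32.

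Of the genes called, 13.5 percent were higher at 28 days, against 26.0 percent with processed signals, 2.33 percent with median centring, 2.56 percent with scaling, 39.6 percent with array weights, 32.0 percent within the first scan day and 29.0 percent without 28 day replicate 5. For the difference from saline the share was 24.8 percent, against 8.76, 0, 0, 8.96 and 8.7 percent with processed signals, median centring, scaling, quantile normalization and the authors' table. It was 50.2 percent with array weights, and 46.6, 44.6 and 44.4 percent without saline 28 day replicate 3 and without replicate 3 of Ang II at 7 or 28 days. Same-numbered aortas did not deviate together (r = 0.056, -0.121, -0.319 and 0.11), so the numbers do not pair the samples; the replicate block gave 525 and 226 calls. Of the 67 called named genes 66 kept their direction under every alternative set at the start and 23 their call with any single aorta left out, but none its call under every one of those alternatives. Median centring moved the median saline change of all genes to -0.112. The cause of these shifts was not tested.

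Of the genes whose sign turned, all but Cd8b1 were not called. With the scanner software's processed signals the log2 changes with a turned sign were Mmp13 -0.18, Cd3e -0.072, Ucp1 -0.50 and Ace 0.036. With scaling between arrays they were Spp1 -0.38, Mmp3 0.10, Myh11 0.15, Adipoq 0.64, Ace 0.19 and Hba-a1 0.37. With quantile normalization they were Cd3e -0.015 and Ace 0.011. With the authors' table they were Mmp13 -0.20, Cd3e -0.10, Ucp1 -0.44 and Ace 0.014. With the mean of all probes it was Cd8b1 0.29. With array weights they were Spp1 -0.22, Mmp13 -0.023, Cd68 -0.14 and Cd3e -0.037. With slide as a fixed block they were Spp1 -0.60, Mmp13 -0.36 and Ace 0.032. Within the first scan day they were Ecrg4 0.17, Spp1 -0.61, Ccn2 0.14, Mmp3 0.27, Mmp13 -0.17, Cd68 -0.54, Cd3e -0.11 and Ace 0.21. Within the second they were Mmp2 0.12, Tgfb1 0.25, Trem2 0.94, Arg1 1.4, Ucp1 -0.36, Hmox1 0.85, Apoe 0.0020 and S100a8 0.21. With the replicate block they were Mmp3 0.071 and Cd3e -0.030. With the neighbouring tissue scores they were Thbs1 0.097, Mmp2 0.30, Mmp3 0.12, Trem2 0.31, Ucp1 -0.11 and Hmox1 0.040. Without 28 day replicates 5 and 6 they were Mmp3 0.25, Cd3e -0.086 and Cd79a -0.048. Without 7 day replicates 1 and 2 they were Thbs1 0.090, Mmp2 0.081, Trem2 0.29, Cd3e -0.0012, Ucp1 -0.30, Ace 0.037 and Apoe 0.027. With single aortas left out the sign turned for 11 genes, whose changes ran, for Trem2 from -0.54 to 0.12, Arg1 from -0.85 to 0.28, Ucp1 from -0.023 to 0.91, Hmox1 from -0.66 to 0.15, Mmp13 from -0.18 to 0.26, Spp1 from -0.37 to 0.61, Cd68 from -0.090 to 0.32, Cd3e from -0.048 to 0.078, Thbs1 from -0.59 to 0.075, Mmp2 from -0.42 to 0.013 and Mmp3 from -0.52 to 0.024.

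Few arrays limit the precision: 4 aortas at 7 days, 6 at 28 days. In simulated data of the same size 88 of 105 genes changed 2-fold and 85 of 95 changed 4-fold were recovered, with 5 unchanged genes called. The simulated noise was independent between genes and had the same spread in every group. The real median SD was 0.198 at 7 days and 0.299 at 28 days, so these figures need not hold for the real aortas. Mmp12 and Cd79a were not well above background on any 7 day array. Their 7 day level is thus not measured, and the folds given for them are no strict lower bounds.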

Other observations

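Several gene groups of blood, immunity and metabolism gave few or no calls between 7 and 28 days of Ang II. None of 17 complement genes, 17 genes of MHC class II and dendritic cells, 7 mast cell genes and 11 platelet genes was called, with median log2 differences of -0.0021, 0.036, 0.069 and -0.21. None of 22 genes of cholesterol synthesis and uptake was called (median 0.30, 17 positive), nor any of 20 genes of mitochondrial protein synthesis (median 0.44, 19 positive). None of 16 immediate early genes and none of 16 circadian clock genes was called, with medians of -0.062 and 0.092. Of 18 receptors of adhesion and leukocyte recruitment 1 fell, Ccr2, and of 17 genes of bone and cartilage 2, Sox9 and Col2a1. The share of all genes called lower was 2.94 percent. The lists of Schwann cells, adrenal cortex, hepatocytes, kidney tubule and erythroid cells held no call, with medians of 0.20, 0.040, 0.29, 0.031 and -0.14.

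Some genes outside the rule for named genes had the smallest adjusted p-values and are given here, chosen after their values were seen. M1ap fell by 1.57 (adjusted p = 2.28e-08), from a mean of 1.78 at 7 days to 0.20 at 28 days, against -0.22 in saline aortas of 7 days. Gjb5, a gap junction protein, fell by 1.89 (adjusted p = 3.49e-07), from 2.13 to 0.24, against -0.52 in saline aortas of 7 days. Gdf6, a ligand of the BMP family, fell by 1.87 (adjusted p = 2.95e-06), from 2.27 to 0.41. At 14 days of Ang II these genes were already at 0.32, 0.49 and 0.54.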
